A study of Mus musculus with 6 samples.

Results

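The genes described here are 9 genes of MHC class II antigen presentation, namely the invariant chain Cd74, the chains H2-Aa, H2-Ab1 and H2-Eb1, the subunits H2-DMa and H2-DMb1, and the regulators Ciita, Rfx5 and Rfxank. They were picked by name for their place in this pathway, from the 55487 mouse gene identifiers in the deposited values, with symbols taken from the GENCODE M21 annotation. RNA-seq was performed on J774 cells, a mouse macrophage line, that received either control siRNA or NCOA4 siRNA by liposomes, with 3 biological replicates per group and no further treatment named in the labels. NCOA4 is the receptor that brings ferritin, the iron storage protein, to autophagy, and the comparison asks how its depletion alters the macrophage transcriptome. J774 is a single tumor-derived line of BALB/c origin, and the siRNA lowered its target without removing it. Values are TPM, for which reads per unit of gene length are brought to a sum of 1000000 in each library.

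MHC class II molecules present peptides from endocytosed material to CD4+ T cells. An α and a β chain (H2-Aa with H2-Ab1 for I-A, and H2-Eb1 as the β chain of I-E) assemble in the endoplasmic reticulum on the invariant chain, which blocks the groove and routes the complex to endosomes, where cathepsins trim it and H2-DM exchanges the last fragment for peptide. Transcription of these genes relies on the RFX complex and NF-Y, which sit on the X and Y boxes of their promoters, and on the coactivator CIITA, whose own gene is switched on in macrophages by interferon-γ.

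Depth was between 15502109 and 18282067 whole reads per library, rebuilt from TPM and gene length. Ncoa4 measured 19.7, 22.5 and 22.4 TPM in control replicates 1 to 3 and 9.63, 8.60 and 8.88 TPM in NCOA4 siRNA replicates 1 to 3, a log2 fold change of -1.21 (adjusted p = 0.00127, limma). All 8 macrophage markers were above the expression filter, with summed levels of 8400.2 to 8609 TPM in the control and 8715 to 8825 TPM in the NCOA4 siRNA libraries. The macrophage markers were not level between groups. Among them Adgre1 (log2 fold change 0.61, adjusted p = 0.0248), Fcgr1 (0.59, adjusted p = 0.00436), Mertk (0.48, adjusted p = 0.00965) and Csf1r (0.31, adjusted p = 0.0218) rose while Cd14 fell (-0.27, adjusted p = 0.0361), all with limma. The adjusted p was under 0.05 in 16 of 16 alternative settings for Fcgr1, 12 for Mertk, 11 for Csf1r, 10 for Adgre1 and 8 for Cd14. The B cell markers Ms4a1 and Pax5 were listed at 0 in all 6 libraries, Cd79a and Cd79b had at most 3 reads in any library, and Cd22 had 10, 8 and 3 reads in control and 17, 8 and 9 reads in NCOA4 siRNA replicates. Of the other markers, 2 of 6 dendritic cell markers and 3 of 4 T cell markers were listed at 0. The dendritic cell markers summed to 1.94 to 2.20 TPM in control and 2.46 to 3.09 TPM in NCOA4 siRNA libraries, and the T cell markers to at most 0.106 TPM. Most of the dendritic cell sum came from Zbtb46, at 1.85 and 2.42 TPM in control and NCOA4 siRNA libraries. Its groups did not overlap, and its log2 fold change of 0.31 did not pass the test (adjusted p = 0.256, limma). Control replicate 1 differed more from the other control libraries (chi-square per gene of 11.8 against each) than these did from each other (3.64), where pure counting noise gives 1.

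Of the 9 class II genes, the invariant chain Cd74 was the only gene called different, at 1.74 times its control level. The chains H2-Aa, H2-Ab1 and H2-Eb1 and the coactivator Ciita were listed at 0 in all 6 libraries, and H2-DMb1 had at most 2 reads in any library. H2-DMa, Rfx5 and Rfxank were transcribed but did not pass the test. In total, 4 of the 9 genes reached the filter of a mean of 0.5 TPM, each with a mean above it in both groups. To be called, a gene needed both a fold change over 1.5 and an adjusted p below 0.05, and 1 of the 4 tested genes was called, against 1.18% of the 13829 genes tested in either direction and 0.861% called higher with NCOA4 siRNA. At an adjusted p under 0.05 alone the count was likewise 1 of 4, against 5.42% of all tested genes. The 2 groups did not overlap for 3 of these 4 genes, against 28.4% of all tested genes. Both shares rest on only 4 tested genes. The median log2 fold change of the 4 was 0.23, and that of all tested genes was 0.03.

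**Figure D1:**
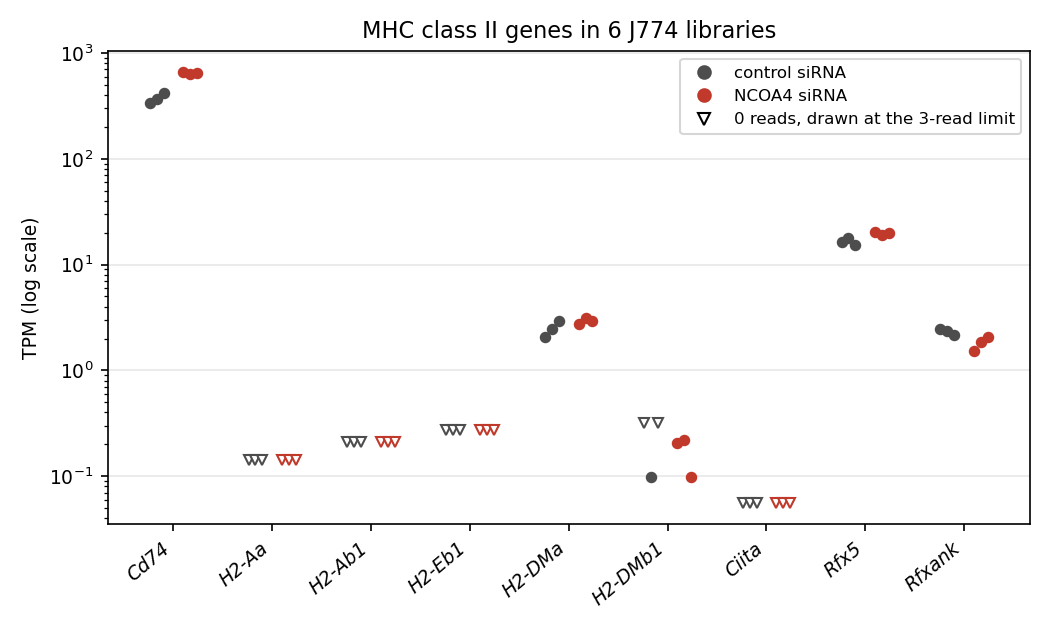
TPM (log scale) of the 9 class II genes in each library, with control siRNA in grey, NCOA4 siRNA in red, and open triangles for libraries with 0 reads, drawn at the level that 3 reads would give. Cd74 sits between 335 and 658 TPM, while H2-Aa, H2-Ab1, H2-Eb1 and Ciita hold triangles only.

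The peptide-presenting chains gave no reads. H2-Aa (ENSMUSG00000036594, chr17:34282744-34287823, minus strand, GRCm38), the α chain of I-A, had 0 reads in each of the 3 control and 3 NCOA4 siRNA libraries. The same held for its partner H2-Ab1 (ENSMUSG00000073421, chr17:34257689-34269419, plus strand) and for H2-Eb1 (ENSMUSG00000060586, chr17:34305867-34316674, plus strand), the β chain of I-E. A count of 0 allows up to 3 reads, which per library corresponds to a level of 0.130 to 0.152 TPM for H2-Aa, 0.193 to 0.224 TPM for H2-Ab1 and 0.255 to 0.296 TPM for H2-Eb1. These limits cover counting error only. Control and NCOA4 siRNA libraries could therefore not be told apart for these chains, and no fold change is given. A value of 0 is reported here only as listed. Cd63, a tetraspanin made by most cells and looked up after its values were seen, was also listed at 0 in 5 libraries, with 1 read in NCOA4 siRNA replicate 1. All 10 of 10 housekeeping genes were above 0 in every library. Among these Gapdh had a mean of 77.5 TPM over the 6 libraries, against 4420 TPM for Actb. Of the stretches of 50 bases in Gapdh transcripts, 25.1% recur in transcripts of other genes. For Cd63 this share was 11.1%, and its pseudogene Cd63-ps was listed at 0 in all 6 libraries. Whether reads were lost in counting was not tested. The class II chains are also highly polymorphic between mouse strains, and the reference genome carries another H2 haplotype than BALB/c. The part of haplotype in these zeros was not tested.

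Promoter windows (250 bases before to 50 after the transcript start, RefSeq, GRCm38.p6) were found for 6 of the 9 genes, and the stretch around the X and Y boxes is shown for the 3 that hold both, since these are the elements that the regulators below act on. Capitals mark the X box core GNAAC, which overlaps no other motif searched, and the Y box core ATTGG (an inverted CCAAT). Only the pair on the strand of the gene is marked, and a CCAAT near the end of the H2-Eb1 stretch stays in lower case. The stretches lie at chr17:34287842-34287929 (minus strand) for H2-Aa, chr17:34305751-34305837 (plus strand) for H2-Eb1 and chr17:34153072-34153159 (plus strand) for H2-DMb1.
H2-Aa: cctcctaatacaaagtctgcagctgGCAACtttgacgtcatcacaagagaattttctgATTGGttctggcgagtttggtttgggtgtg
H2-Eb1: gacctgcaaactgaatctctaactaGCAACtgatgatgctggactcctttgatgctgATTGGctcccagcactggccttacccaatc
H2-DMb1: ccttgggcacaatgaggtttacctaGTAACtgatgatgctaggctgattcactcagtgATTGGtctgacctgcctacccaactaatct

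The X core began 81, 91 and 94 bases before the RefSeq transcript start of H2-Aa, H2-Eb1 and H2-DMb1, with 28, 27 and 28 bases between it and the Y core. For H2-DMb1 the GENCODE M21 gene begins at 34153072, before the RefSeq start, so that its stretch lies within the gene as counted. Over 32851 promoter windows, 37.4% held the Y core and 84.8% the X core on either strand. Both in this order, 10 to 35 bases apart on 1 strand, occurred in 4.19% of windows, and in 2.09% on the strand of the gene as here. The pair was not in the windows of H2-DMa, Rfx5 and Rfxank, although the Rfx5 window and a window of H2-DMa held both cores. The 3 genes whose windows hold the pair had between 0 and 2 reads per library. Cd74, H2-Ab1 and Ciita had no window and could not be searched, so the pair cannot be set against expression here.

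Cd74 (ENSMUSG00000024610, chr18:60803848-60812652, plus strand), the chaperone of class II chains, which also serves at the cell surface as a receptor for the cytokine MIF, was abundant. It measured 335, 368 and 415 TPM in control replicates 1 to 3 and 658, 636 and 646 TPM in NCOA4 siRNA replicates 1 to 3. The lowest NCOA4 siRNA library lay well above the highest control library, and the control libraries were spread more widely (373 ± 40.3 TPM, SD, n = 3) than the NCOA4 siRNA libraries (647 ± 11.2 TPM, SD, n = 3). These levels rest on 3232, 3740 and 3635 reads in the control and 6419, 5816 and 6548 reads in the NCOA4 siRNA libraries. The log2 fold change was 0.80 with a standard error of 0.0760 (adjusted p = 0.00398, limma). Permuting the libraries gave p = 0.1 (exact, two-sided), the smallest that 3 against 3 libraries allow. Cd74 was called in 16 of 16 alternative settings, with log2 fold changes between 0.73, without control replicate 1, and 0.88, without control replicate 3. Of the 13829 tested genes, 252 (1.82%) had a higher mean TPM than Cd74 (509.7 TPM over the 6 libraries). Adgre1 and Fcgr1 were called in the same direction as Cd74, and the part of this shift in macrophage markers in the Cd74 result was not tested.

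Set against the chains at 0, per unit of length, Cd74 exceeded the 3-read limit by at least 2437-fold (H2-Aa), 1648-fold (H2-Ab1) and 1247-fold (H2-Eb1) in every library. In the GENCODE M21 annotation, no stretch of 50 bases of Cd74 transcripts recurs in transcripts of another gene. The same holds for H2-Ab1 and H2-Eb1, and 0.514% of such stretches recur for H2-Aa. This recurrence was examined after the values had been seen. It compares reference transcripts only, and whether reads of these genes from J774 cells could be placed was not tested.

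H2-DMa and H2-DMb1 encode the chains of H2-DM, the peptide exchanger. H2-DMa (ENSMUSG00000037649, chr17:34119541-34139101, plus strand) measured 2.07, 2.44 and 2.95 TPM in control and 2.75, 3.14 and 2.93 TPM in NCOA4 siRNA replicates, from 41 to 61 reads per library. The groups overlapped, with control replicate 3 above 2 of the 3 NCOA4 siRNA libraries. The means were 2.49 ± 0.441 and 2.94 ± 0.197 TPM (SD, n = 3 each), and the log2 fold change of 0.21 (SE 0.148) did not pass the test (adjusted p = 0.458, limma). Its level lay low among the tested genes, of which 80.3% had a higher mean. Brd2, a bromodomain gene at 124 TPM in control and 118 TPM in NCOA4 siRNA libraries, covers 10.4% of its exonic bases on the opposite strand. The library kit keeps strand, but the strand setting used for counting is not given in the sources used here.

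H2-DMb1 (ENSMUSG00000079547, chr17:34153072-34160230, plus strand) had 0, 1 and 0 reads in control and 2, 2 and 1 reads in NCOA4 siRNA replicates. Both groups were at or under the 3-read limit, so that no fold change is given, and its mean of 0.103 TPM was under the filter. Reads of H2-DMb1 and its neighboring copy H2-DMb2 are uncertain, since 22.7% of the 50-base stretches of H2-DMb1 recur in H2-DMb2. H2-DMb2 had 4, 4 and 2 reads in control and 15, 5 and 5 reads in NCOA4 siRNA replicates, without overlap, and a log2 fold change of 0.60 that did not pass the test (adjusted p = 0.382, limma). Thus few reads were counted for H2-DMa and H2-DMb1 in both groups.

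Among the regulators, Ciita (ENSMUSG00000022504, chr16:10480059-10528418, plus strand), the coactivator that class II transcription depends on, was listed at 0 in all 6 libraries. The limit that 3 reads give was 0.0519 to 0.0603 TPM, and Cd74 lay at least 6118-fold above it per length in every library. Cd74, between 335 and 658 TPM, was thus read in libraries without a counted Ciita read.

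Rfx5 (ENSMUSG00000005774, chr3:94954075-94961561, plus strand), the DNA-binding subunit of the RFX complex, measured 16.4, 18.0 and 15.4 TPM in control and 20.4, 19.2 and 20.05 TPM in NCOA4 siRNA replicates. Each NCOA4 siRNA library was above each control library, from 442 to 665 reads per library. The means were 16.6 ± 1.30 and 19.9 ± 0.595 TPM (SD, n = 3 each). The log2 fold change of 0.25 (SE 0.0691) did not pass the test (adjusted p = 0.0904, limma), and the exact permutation test gave p = 0.1. With limma-voom on the rebuilt reads the adjusted p was 0.0231, while the fold change stayed under 1.5 in each of 16 alternatives. Rfx5 shares 26.8% of its exonic bases with B230398E01Rik on the opposite strand.

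Rfxank (ENSMUSG00000036120, chr8:70130794-70139154, minus strand), the ankyrin repeat subunit of the same complex, measured 2.46, 2.37 and 2.18 TPM in control and 1.52, 1.85 and 2.05 TPM in NCOA4 siRNA replicates. Here the control libraries were the higher ones, again without overlap, from 35 to 57 reads per library. The means were 2.33 ± 0.145 and 1.81 ± 0.267 TPM (SD, n = 3 each), and the log2 fold change of -0.30 (SE 0.150) did not pass the test (adjusted p = 0.301, limma). Nr2c2ap covers 33.8% of its exonic bases on the opposite strand, so that its reads are the least certain of the tested class II genes. The 2 RFX subunits thus had fold changes of opposite sign, neither past the test.

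**Figure D2:**
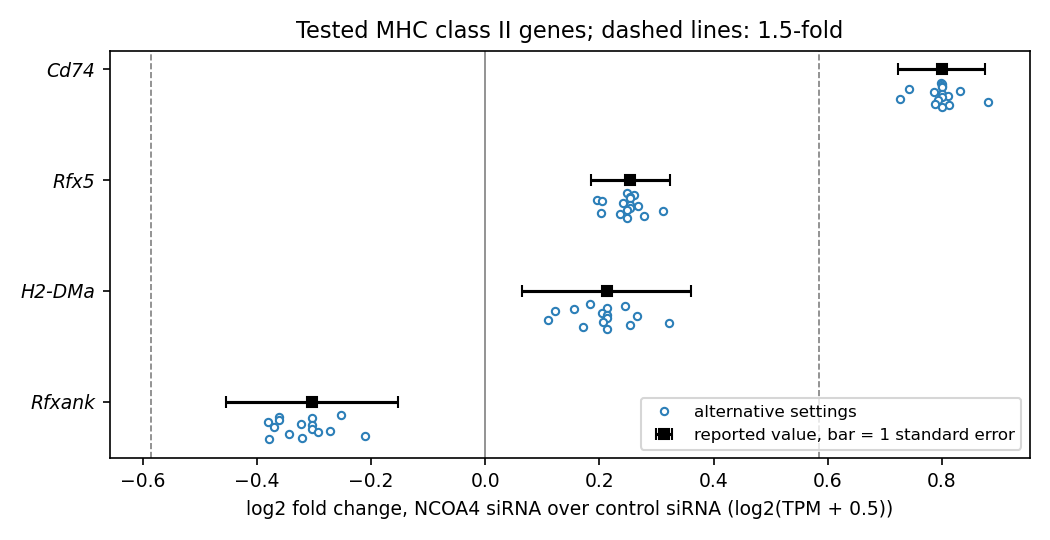
Log2 fold change, NCOA4 siRNA over control siRNA on the log2(TPM + 0.5) scale, of the 4 tested class II genes, as black squares with a bar of 1 standard error, and the values under the alternative settings as open circles. Each value of Cd74 lies beyond the dashed 1.5-fold line, and those of Rfx5, H2-DMa and Rfxank lie within it.

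To compare the genes without any scaling between libraries, TPM of Cd74 was divided by that of each other tested class II gene within each library. Cd74 was 162, 151 and 141 times H2-DMa in control and 240, 202 and 220 times H2-DMa in NCOA4 siRNA replicates. It was 20.4, 20.4 and 26.9 times Rfx5 in control and 32.3, 33.1 and 32.2 times Rfx5 in NCOA4 siRNA replicates. Against Rfxank the ratio was 136, 155 and 191 in control and 433, 344 and 316 in NCOA4 siRNA replicates. In each of the 3 ratios all NCOA4 siRNA libraries lay above all control libraries. The 3 ratios share the values of Cd74, which by itself did not overlap between groups. They are therefore not separate from that result or from each other. The ratio rose 1.46-fold against H2-DMa, 1.45-fold against Rfx5 and 2.27-fold against Rfxank by group means, each with p = 0.1 in an exact two-sided permutation test of log2 ratios (0.1 after Benjamini-Hochberg adjustment over the 3 ratios), the smallest p that 6 libraries allow. Ratios to the class II chains could not be formed, as these were at 0.

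**Figure D3:**
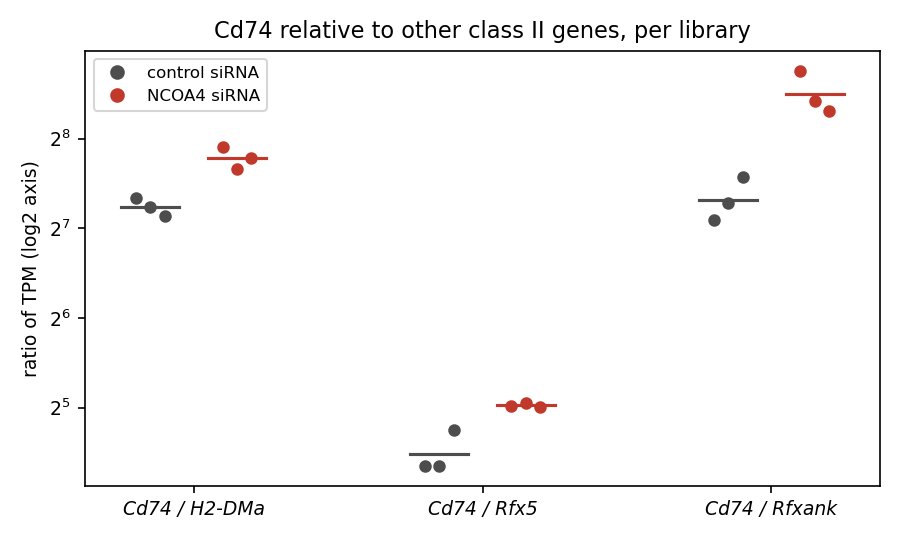
Ratio of Cd74 TPM to the TPM of H2-DMa, Rfx5 and Rfxank (log2 axis) in each library, with control siRNA in grey, NCOA4 siRNA in red and a line at the mean log2 ratio of each group. For each of the 3 genes the lowest NCOA4 siRNA ratio (202, 32.2 and 316) is above the highest control ratio (162, 26.9 and 191).

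Most of the class II chain genes lie together on chromosome 17, and the genes between them give a view of this region. Of 10 class II chain genes and pseudogenes there, 5 were listed at 0 in every library, including H2-Eb2 and H2-Ea-ps beside the 3 chains above. H2-Ea-ps is annotated in GENCODE M21 as a polymorphic pseudogene, and its state in J774 cells was not tested. H2-Ob, a subunit of the H2-DM inhibitor H2-O, had a single read, in NCOA4 siRNA replicate 3. Its partner H2-Oa had 3, 1 and 2 reads in control and 2, 9 and 13 reads in NCOA4 siRNA replicates. The H2-Oa groups overlapped, and the log2 fold change of 0.87 (SE 0.431) did not pass the test (adjusted p = 0.302, limma). The 5 other protein-coding genes within the region were all expressed. Of these, which were examined after values had been seen, Brd2 overlapped between groups (log2 fold change -0.07, adjusted p = 0.576, limma). Psmb9, an immunoproteasome subunit, measured 12.6, 14.2 and 17.1 TPM in control and 21.3, 22.3 and 22.0 TPM in NCOA4 siRNA replicates (0.57, adjusted p = 0.0313, limma). Tap2, a subunit of the peptide transporter for class I, rose from 26.3 ± 1.09 to 32.4 ± 0.663 TPM (0.30, adjusted p = 0.0225, limma, SD, n = 3 each). Psmb8 at 107 and 117 TPM did not pass the test (0.13, adjusted p = 0.225, limma). In the alternative settings the adjusted p was under 0.05 in 9 of 16 for Psmb9 and 10 of 16 for Tap2, and lost without any 1 of the NCOA4 siRNA replicates (0.111, 0.122 and 0.117 for Psmb9, and 0.105, 0.0936 and 0.0907 for Tap2, without replicates 1 to 3, limma) or without control replicate 2 (0.0811 and 0.0514).

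**Figure D4:**
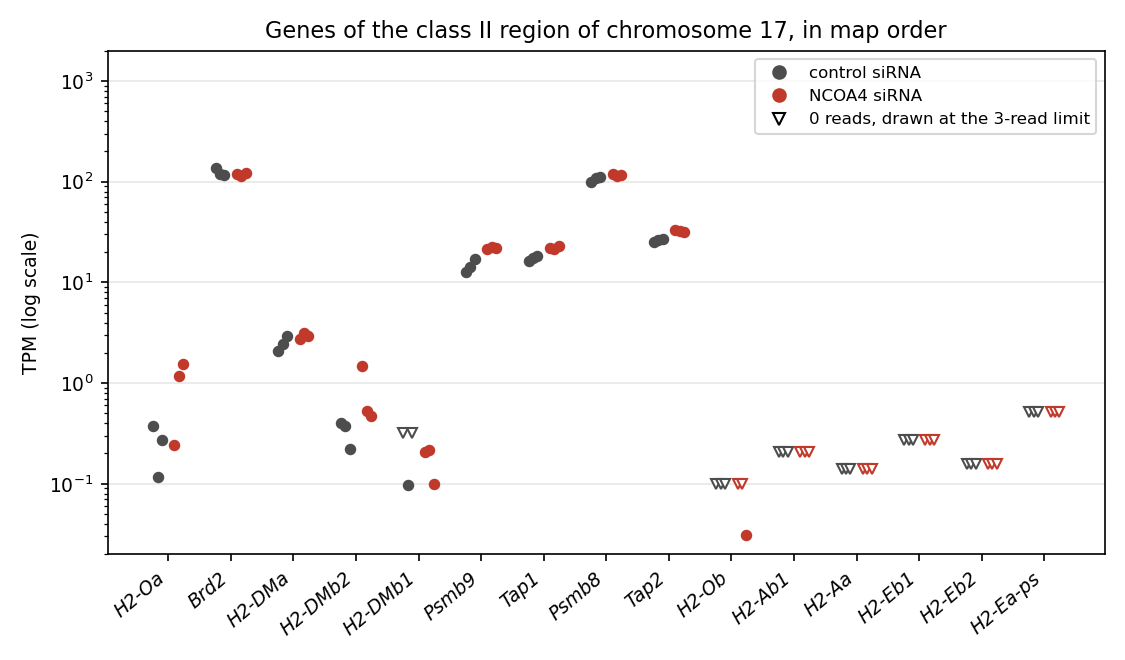
TPM (log scale) of class II chain genes and of the genes lying between them on chromosome 17, in map order, per library, with open triangles for 0 reads drawn at the 3-read limit. Brd2, Psmb9, Tap1, Psmb8 and Tap2 lie between 12.6 and 136 TPM, while no class II chain gene exceeds 3.14 TPM.

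The wider class II pathway was described with 6 lists holding 45 further genes, of which 37 were tested. In these lists 2 genes rose and 2 fell at an adjusted p under 0.05, against 5.42% of all tested genes, and none was called. The median log2 fold change of the 37 genes was 0.05, with 23 above 0 and 14 below. Of 8 promoter factors and coactivators, all tested, 1 rose. This was the histone acetyltransferase Kat2b, at 27.2 ± 1.53 and 35.3 ± 0.564 TPM (0.37, adjusted p = 0.0150, limma, SD, n = 3 each). Of 12 genes that act on Ciita, 10 were tested and 1 rose. Irf1, an interferon-induced activator of the Ciita promoter, measured 15.1, 15.6 and 14.6 TPM in control and 20.8, 22.2 and 23.7 TPM in NCOA4 siRNA replicates (0.54, SE 0.0645, adjusted p = 0.00776, limma). The groups did not overlap for Irf1, whereas Ciita stayed at 0 in the same libraries.

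Among 9 genes of endosomal processing, all tested, 2 fell. Ctsl, a cysteine protease that can trim the invariant chain, went from 821 ± 27.3 to 652 ± 3.16 TPM (-0.33, adjusted p = 0.00751, limma, SD, n = 3 each). Ctsb, a related protease, went from 1358 ± 60.0 to 1151 ± 18.1 TPM (-0.24, adjusted p = 0.0337, limma). Ctss, the main invariant chain protease of antigen-presenting cells, and the thiol reductase Ifi30 did not pass the test, at 1429 and 1530 TPM and at 1144 and 1164 TPM in control and NCOA4 siRNA libraries. Levels differed widely within this list, and the protease Ctsh measured 4.12 and 4.64 TPM and the intramembrane protease Sppl2a 24.0 and 28.0 TPM in control and NCOA4 siRNA libraries, neither past the test. None of 4 tested genes of class II trafficking and turnover and none of 4 tested partners of CD74 passed the test. Mif, the ligand of CD74, measured 2644 ± 349 and 2500.3 ± 28.5 TPM (SD, n = 3 each). With the replicate number as a block none of these 4 genes had an adjusted p under 0.05 (adjusted p = 0.0515 for Irf1, 0.0698 for Kat2b, 0.0532 for Ctsl and 0.106 for Ctsb, limma). Ctsb had an adjusted p under 0.05 in 8 of 16 alternatives, Ctsl and Kat2b in 12 each and Irf1 in 15. Leaving out any 1 NCOA4 siRNA replicate raised the adjusted p to 0.0512 to 0.0563 for Ctsl, 0.0696 to 0.0782 for Kat2b and 0.138 to 0.149 for Ctsb (limma), and Ctsb was also lost without control replicate 2 (0.0616) or 3 (0.0621).

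**Figure D5:**
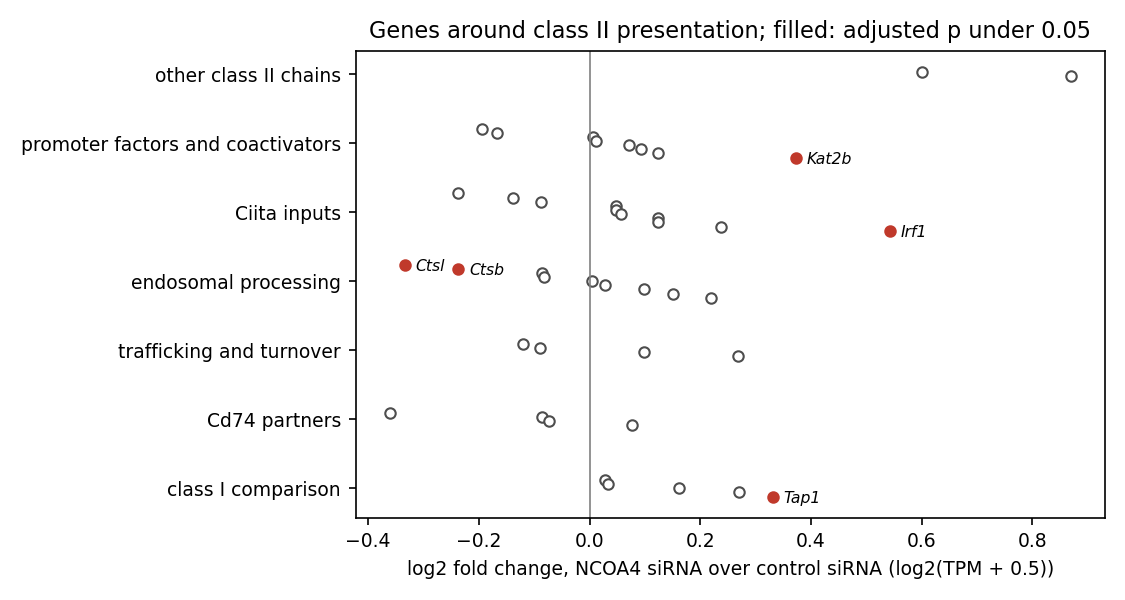
Log2 fold change, NCOA4 siRNA over control siRNA on the log2(TPM + 0.5) scale, of each tested gene in the 6 lists around class II presentation and in the class I comparison, 1 circle per gene, filled where the adjusted p was under 0.05. Kat2b, Irf1 and Tap1 are filled on the right and Ctsl and Ctsb on the left.

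Class I genes, which present peptides from the cytosol and do not use the invariant chain, served as a comparison. The class I light chain B2m measured 2021 and 2055 TPM in control and NCOA4 siRNA libraries, H2-K1 67.4 and 68.6 TPM and H2-D1 166 and 185 TPM, with log2 fold changes of 0.03, 0.03 and 0.16. The part of haplotype in the levels of H2-K1 and H2-D1 was not tested either. Nlrc5, the class I counterpart of Ciita, measured 4.37 and 5.33 TPM (0.27, adjusted p = 0.273, limma). Of these 5 genes only the transporter subunit Tap1 passed the test, at 17.5 ± 1.01 and 22.1 ± 0.895 TPM (0.33, adjusted p = 0.0318, limma, SD, n = 3 each), and it did so in 8 of 16 alternatives.

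The 5 tested genes with a mean of at least 5 TPM whose levels followed Cd74 most closely over the 6 libraries were Cdk2ap2, Mxd4, Abcc3, Ighm and Myo7a, with Pearson r between 0.997 and 0.998 on log2(TPM + 0.5). They were the closest of 10037 genes over 6 points that fall into 2 groups and share library and depth, so r is a description only. Mxd4 (10.4 and 18.4 TPM, log2 fold change 0.79) and Abcc3 (21.5 and 32.9 TPM, 0.61) were called higher, Mxd4 in 16 of 16 and Abcc3 in 13 of 16 alternative settings (log2 fold change 0.55 for Abcc3 without control replicate 1). Cdk2ap2 measured 46.8 and 65.9 TPM, Ighm 28.5 and 36.8 TPM and Myo7a 67.6 and 81.7 TPM in control and NCOA4 siRNA libraries. Ighm, an immunoglobulin constant gene that was not on the list of B cell markers, had 292 to 413 reads per library. None of the other class II genes was among the 5.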

How the data were processed

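J774 cells given control siRNA or NCOA4 siRNA (3 biological replicates each) were profiled with stranded poly(A) RNA-seq libraries. The authors deposited TPM per library, with no further scaling between libraries. The submitters' processing notes name Trimmomatic 0.33, FastQC, HISAT2 2.1.0, featureCounts, edgeR and mm10, and the annotation is not given in the sources used here. The authors tested counts with edgeR, which needs counts and was not used here. TPM removes gene length and depth but not composition, so a gene's value also moves with those of abundant genes, and reads with more than 1 placement may be lost depending on settings not given.

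Of 55487 identifiers, 55227 matched GENCODE M21 (GRCm38), which gave symbols, positions and lengths. Whole reads were rebuilt from TPM and length, and 98.6% of 21055 genes with a value above 0 and a length gave whole reads in all 6 libraries within 0.01. Genes with a mean of at least 0.5 TPM (13829) were tested with limma 3.58.1 (R 4.3.3) on log2(TPM + 0.5), with eBayes with a trend, no block and Benjamini-Hochberg adjustment. Fold changes are on this scale and understate changes of low genes. Single genes were also tested over the 20 arrangements of 6 libraries (smallest p 0.1). Shared stretches and motifs were counted in Python 3.11.15. The test was tried on simulated data.

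Named are the 9 genes, Ncoa4, listed genes with an adjusted p under 0.05 (at most 4 per list), every class II chain, 5 genes most like Cd74, class I genes and defining markers. Other names were chosen after values were seen. Part of the marker results is not reported here. The genes and lists were chosen with earlier results of these data known. As alternatives, the pseudocount was set to 1 or 0.1, the filter was dropped or raised to 5 TPM, and the other settings were median centring, quantile normalization, removal of mitochondrial genes, eBayes without a trend, limma-voom on rebuilt reads, a replicate block and each library left out.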

Additional observations from a re-analysis of the deposited data

How the results depend on the processing

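Cd74 and Ncoa4 were called in 16 of 16 alternatives, and H2-DMa, Rfx5 and Rfxank kept their direction and were never called, where they could be tested (H2-DMa and Rfxank fell under the filter of 5 TPM). The 3 ratios of Cd74 kept their direction in 7 of 7 alternatives each, and a ratio of rebuilt reads is the same by construction. The ratio to the class II chains could not be run, since these were at 0. With limma-voom on rebuilt reads, 2 of the 9 class II genes had an adjusted p under 0.05 in place of 1, Rfx5 (0.0231) being the second. The deviations of same-numbered libraries correlated at 0.0283, -0.0185 and 0.0229 (replicates 1 to 3). Those of differently numbered libraries correlated at -0.0412 to 0.0202. These values cannot settle whether replicates were paired, and the labels do not say. With the replicate number as a block, 87 genes were called in place of 163 (adjusted p = 0.0307 for Cd74, limma), and 0 in place of 4 pathway genes had an adjusted p under 0.05. Leaving out 1 library gave 93 to 173 called genes and 1 to 4 such pathway genes. Of the 4 pathway genes, Irf1 alone kept an adjusted p under 0.05 when any 1 library was left out. Genes called higher and lower numbered 119 and 44, but 105 and 68 with median centring and 99 and 61 with quantile normalization. Without control replicate 1, which stood apart, Cd74 had a log2 fold change of 0.73 (adjusted p = 0.00298, limma), and Adgre1 (0.48) and Fcgr1 (0.53) fell under 1.5-fold. Under the block Adgre1 had an adjusted p of 0.0772 (limma). Few reads limit the values of H2-Ob (1 read over the 6 libraries), H2-DMb1, H2-Oa, H2-DMb2, H2-DMa and Rfxank, which had at most 61 reads in any library.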
